A study of Mus musculus with 6 samples.

Results

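The 86 genes described here encode, or by name resemble, the proteins of the cytosolic ribosome. They were taken from the 22248 genes listed in the file by name: every gene called Rpl or Rps followed by a number (with at most an a, x, y or l and a further digit after it), plus Rpsa, Rplp0, Rplp1 and Rplp2. Named pseudogenes (-ps) and the Rps6 kinases were left out. Of the 86 genes, 77 are core ribosomal protein genes (46 of the large subunit and 31 of the small subunit), 5 are paralogs of a core gene (Rpl3l, Rpl7l1, Rpl22l1, Rpl39l and Rps27l), and 4 are processed pseudogenes in the GENCODE annotation (Rps4l, Rps3a2, Rps3a3 and Rpl6l). Fau and Rack1, which also encode proteins of the cytosolic ribosome, are outside the name rule and are given with the related lists.

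The RNA came from bone marrow-derived macrophages (BMDMs) of C57BL/6 mice at postnatal week 10 per the labels, grown from bone marrow for 7 days in macrophage colony-stimulating factor. Cells of 3 control libraries came from Lyz2cre mice, which carry Cre in the Lyz2 gene and an intact Cited2. Cells of 3 CITED2-deficient libraries came from Cited2fl/fl:Lyz2cre mice, in which the same Cre deletes the floxed Cited2 in myeloid cells, so both groups carried Cre. All 6 were the untreated condition, and because nothing states whether the libraries of a group came from separate animals, the p-values measure only the spread between these libraries.

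CITED2 is a co-regulator that binds CBP and p300 and has no DNA-binding domain of its own. A cytosolic ribosome holds a single copy of nearly each of its proteins, and the genes for these proteins are spread over the genome. Their mRNAs are among the most abundant of most cells, macrophages included. They typically begin with a C followed by a run of pyrimidines, the 5′ terminal oligopyrimidine (TOP) tract, through which LARP1 and the kinase complex mTORC1 set their translation and stability.

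Cited2 itself was at 71.7, 79.3 and 75.5 FPKM (fragments scaled to transcript length and library size) in control BMDMs and at 9.27, 7.22 and 7.53 FPKM in CITED2-deficient BMDMs. The log2 fold change was -3.09 (adjusted p = 6.57e-09, limma with Benjamini-Hochberg adjustment), and the groups did not overlap, in the direction the genotype labels give. The depth was 17289285 to 18952076 fragments in control libraries and 22583994 to 26100409 fragments in CITED2-deficient libraries. The macrophage markers Csf1r, Adgre1 and Cd68 were at 906 FPKM or more in every library. Of 9 fixed macrophage markers, 5 fell and 1 rose (34.6% and 16.7% of all tested genes did), and their summed level was 5851 ± 35.6 FPKM in control and 5513 ± 41.3 FPKM in CITED2-deficient libraries (SD, n = 3). The deepest falls were those of Lyz2, the gene that carries Cre (31.3 ± 1.03 to 9.75 ± 0.333 FPKM), and Itgam (89.7 ± 0.865 to 50.9 ± 1.69 FPKM). Fcgr1, the 1 that rose, went from 172 ± 0.793 to 482 ± 17.2 FPKM. Fibroblast or stromal markers moved with the genotype: all 7 tested of 10 rose, and their sum went from 43.0 to 51.5 FPKM in control libraries to 173 to 548 FPKM in CITED2-deficient libraries. Of 9 tested markers of granulocyte precursors and neutrophils, 7 fell and 1 rose, with sums of 788 ± 37.6 and 716 ± 60.0 FPKM. S100a9, S100a8, Ngp and Ltf make up most of both sums. Mpo (16.2 ± 2.32 to 1.95 ± 0.271 FPKM), Prtn3 (14.3 ± 0.488 to 2.52 ± 0.385 FPKM), Elane (12.4 ± 0.491 to 2.15 ± 0.0701 FPKM) and Ctsg (4.22 ± 0.599 to 0.626 ± 0.0471 FPKM) fell far more than the sums. Ltf, the 1 that rose, went from 94.3 ± 4.77 to 177 ± 13.2 FPKM. Of 7 markers of dividing cells, 3 fell and 1 rose, with sums of 314 ± 14.1 and 350 ± 12.8 FPKM, most of which is Pcna. None of the 5 listed erythroid and 4 listed dendritic cell markers passed the filter (sums up to 0.939 and 0.559 FPKM as group means), and the 1 tested B cell marker, Cd79b, did not pass the test. The part of these other cells in the values below was not tested, and in bulk RNA fewer cells of a type and less RNA per cell cannot be told apart.

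The start sites of the genes are shown first, because the TOP tract is the sequence feature the family shares. RefSeq promoters (GRCm38.p6) were found for 62 of the 86 genes, with 74 start sites among 32851 in the table. Each line gives the 15 bases before the annotated start and the first 15 bases of the transcript, 5′ to 3′ on the gene's strand, so that the start is the sixteenth letter. Capitals mark a C followed by at least 4 further C or T letters that begins within 5 bases of the annotated start. The first 5 genes are among those with large falls or high levels, and Rps6 fell little.
Rps27, minus strand of chr3:90213634-90213663: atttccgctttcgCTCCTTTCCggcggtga
Rps21, plus strand of chr2:180257364-180257393: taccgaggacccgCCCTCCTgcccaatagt
Rpl38, plus strand of chr11:114668565-114668594: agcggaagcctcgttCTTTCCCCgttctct
Rplp2, plus strand of chr7:141447636-141447665: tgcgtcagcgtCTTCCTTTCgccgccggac
Rps9, plus strand of chr7:3704026-3704055: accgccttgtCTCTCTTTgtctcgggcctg
Rps6, minus strand of chr4:86857353-86857382: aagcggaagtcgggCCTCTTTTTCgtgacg

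Rps28, Rpl37a and Rpl10 had no such run at the annotated start, and they are shown because the first and the second also fell strongly while Rpl10 had the highest level.
Rps28, minus strand of chr17:33824548-33824577: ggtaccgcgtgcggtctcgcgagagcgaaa
Rpl37a, plus strand of chr1:72711245-72711274: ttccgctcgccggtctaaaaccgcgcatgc
Rpl10, plus strand of chrX:74270801-74270830: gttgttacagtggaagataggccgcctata

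A run of this kind began exactly at 17.6% of the family's 74 start sites, against 2.51% of all start sites, and within 5 bases of 41.9% against 18.3%. In the 300-base promoters (250 bases before the start and 50 after, both strands, each motif searched on its own so that matches may overlap), CCGGAA, the core of ETS factor sites, was found in 48.6% of the family's promoters and 14.9% of all promoters. ATGGCGG, the core of YY1 sites, was found in 18.9% against 4.05%, and TCGCGAGA in 16.2% against 0.995%. The GC box GGGCGG was in 59.5% against 35.7%, the E-box CACGTG in 10.8% against 7.15%, and TATAAA in 9.46% against 13.6%. A match is a description of letters and no evidence of binding.

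In CITED2-deficient BMDMs, nearly the whole family was lower than in control BMDMs. Of the 83 genes that passed the filter (mean FPKM of at least 1), 75 fell and 3 rose (Rpl29, Rps4l and Rpl39l), against 34.6% lower and 16.7% higher (51.3% in either direction) of all 11687 genes tested. Another 5 did not pass the test (Rpl13a, Rpl7l1, Rps10, Rps3a2 and Rps27l), and 3 were below the filter (Rps3a3, Rpl6l and Rpl3l). The median log2 fold change was -0.38, against -0.10 over all tested genes, and falls and rises given below without a unit are log2 fold changes too. In each of the 75 genes that fell, all 3 CITED2-deficient libraries were below all 3 control libraries, a pattern that 40.9% of all tested genes showed. The mean of the CITED2-deficient libraries was 0.477 to 0.927 times that of control, with a median of 0.757. It was under 0.7 times in 18 genes, between 0.7 and 0.85 times in 49, and 0.85 times or more in 8. Of the 83 tested genes, 81 had a mean of at least 1 FPKM in both groups; Rpl24 and Rpl39l passed the filter only through the group in which they were higher.

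**Figure D1:**
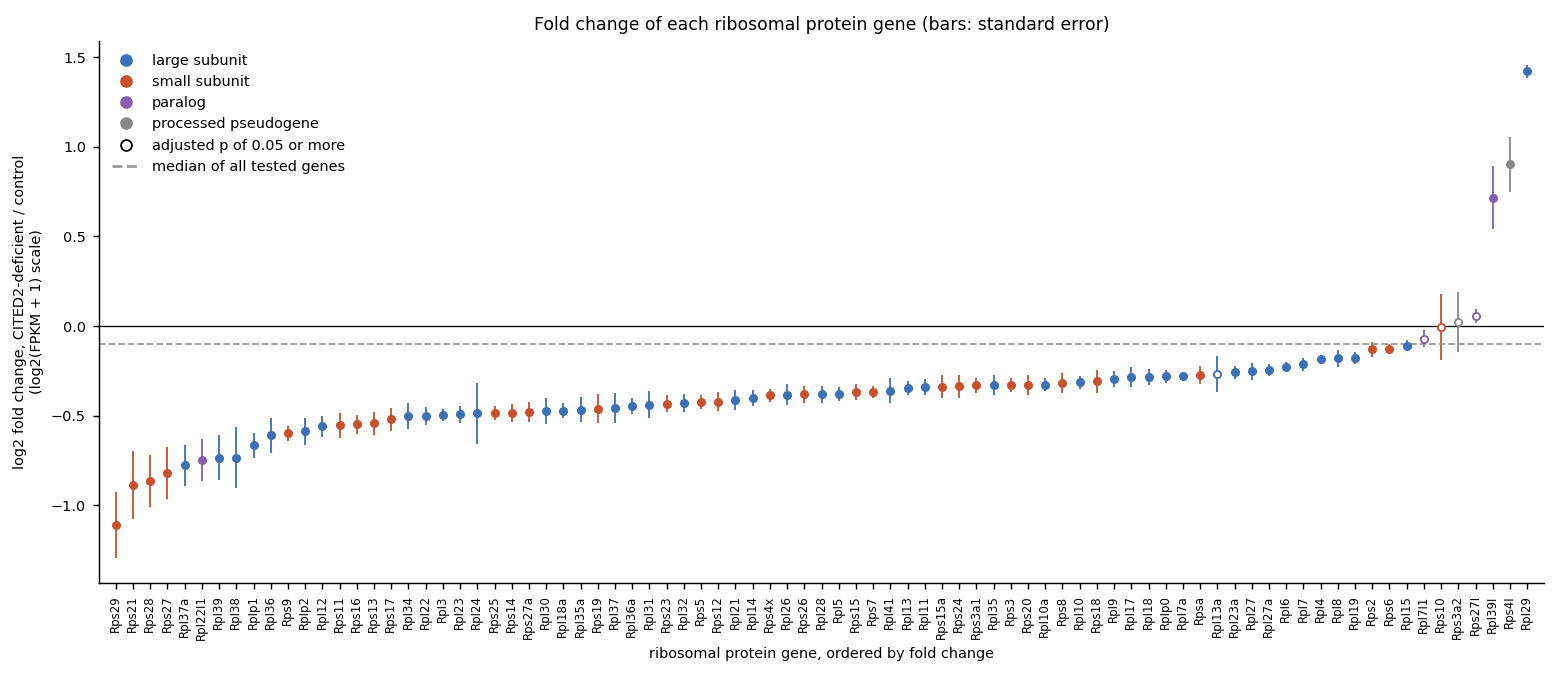
Log2 fold change (CITED2-deficient over control, log2(FPKM + 1) scale, vertical axis) of the 83 tested genes in rank order (horizontal axis), with the standard error as bars, colour for the subunit or class, and open circles for an adjusted p of 0.05 or more. All core genes but Rpl29 and Rps10 lie below the dashed line, the median of all tested genes (-0.10), and Rpl29 stands alone at 1.42.

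The deposited FPKM also place the median of all genes below 0. When the libraries were rescaled by median ratios, which moved the median of all genes to -0.0069, 69 of the 83 genes were lower and 4 higher, against 21.3% lower and 23.1% higher of all genes, and the median of the family was -0.28. When the trend of each library with transcript length and GC content was removed, 62 were lower and 4 higher, against 20.2% and 24.4% of all genes, and the median was -0.23. The fourth higher gene under both is Rps27l. Of the 75 genes, 62 were lower past the threshold under each of the alternative fits that tested them, and 72 were below 0 in each. The exceptions in sign, named after their values were seen, were Rps2, Rps6 and Rpl15, which were slightly above 0 once the length and GC trend was removed.

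The summed level was lower as well. The 86 genes added up to 34290, 35733 and 34160 FPKM in control BMDMs and to 28324, 24390 and 26012 FPKM in CITED2-deficient BMDMs. The groups did not overlap, and the mean sum was 0.756 times that of control. As a share of recovered fragments, the family took 2.56% ± 0.062 in control and 1.96% ± 0.132 in CITED2-deficient libraries (SD, n = 3). Within the CITED2-deficient group, replicate 2 was the lowest library for 69 of the 77 core genes and replicate 1 the highest for 66, so the order of these libraries was much the same from gene to gene. In control, replicate 2 was the highest for 61 of 77. Replicate 1 of the CITED2-deficient group, with the highest ribosomal protein sum of its group, also had the highest sum of fibroblast or stromal markers (548 FPKM, against 173 and 174 in the others). The coefficient of variation of a core gene was 3.5% in control and 7.1% in CITED2-deficient libraries, as medians over the 77 genes.

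Both subunits fell. Of the 46 core large-subunit genes 44 fell and 1 rose, with a median log2 fold change of -0.38. Of the 31 core small-subunit genes 30 fell, with a median of -0.42. Among all tested genes 34.6% were lower and 16.7% higher. The summed FPKM of the large subunit went from 20409 ± 522 to 15799 ± 1051, and that of the small subunit from 14098 ± 355 to 10225 ± 920 (SD, n = 3). The ratio of the large-subunit to the small-subunit sum was 1.444, 1.448 and 1.45 in control BMDMs and 1.508, 1.579 and 1.555 in CITED2-deficient BMDMs. The ratio was thus higher in all 3 CITED2-deficient libraries, by a factor of 1.07 in the mean. Rps29, Rps21, Rps28 and Rps27, which had the deepest falls of the small subunit, are short (under 580 bases) and weigh on this ratio. With the length and GC trend removed, the medians were -0.21 for the large and -0.26 for the small subunit. The difference between the subunits was not tested.

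**Figure D2:**
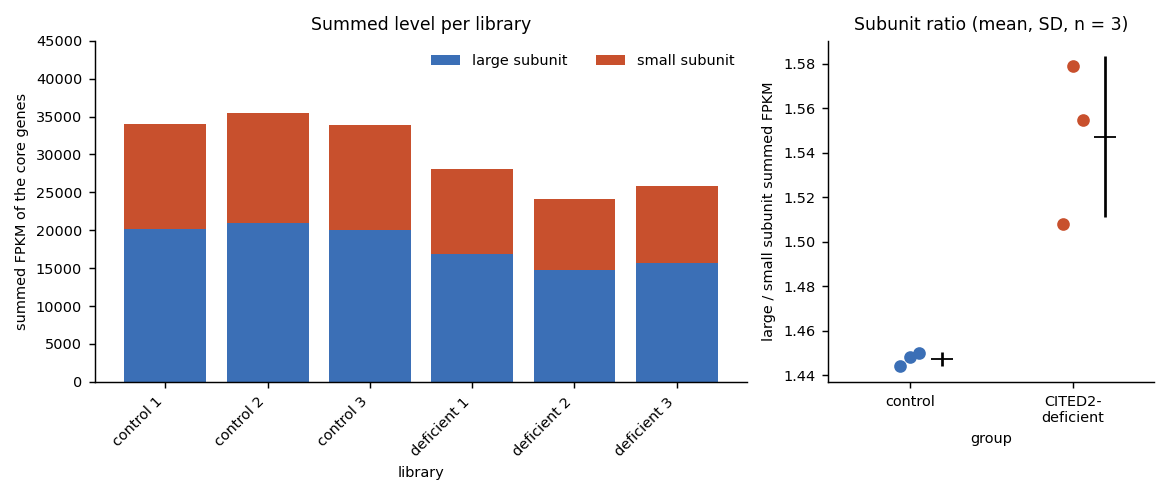
Left, summed FPKM of the 77 core genes in each library (bars from 0, large and small subunit stacked). Right, large-subunit sum over small-subunit sum in each library (points), with the mean and SD of the 3 libraries beside them (the axis does not start at 0). The sums are 33937 to 35516 FPKM in control and 24180 to 28100 FPKM in CITED2-deficient libraries, and the ratios do not overlap.

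Of the 5 deepest falls among the core genes, 4 were in the small subunit (Rps29, Rps21, Rps28 and Rps27). Rps29 was at 623, 706 and 638 FPKM in control libraries and at 426, 225 and 288 FPKM in CITED2-deficient libraries. Its log2 fold change of -1.11 (SE 0.184, adjusted p = 0.000951) was the lowest of the family, and leaving out single libraries moved it between -1.36 and -0.90. Its CITED2-deficient libraries differed among themselves by more than its control libraries, but none reached the control range.

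Rps21 went from 492, 581 and 488 FPKM to 406, 229 and 236 FPKM (log2 fold change -0.89, SE 0.19, adjusted p = 0.00403). Rps28, whose product lies near the mRNA exit, went from 341, 361 and 354 FPKM to 250, 149 and 193 FPKM (-0.86, SE 0.146, adjusted p = 0.00109). Rps27, a zinc-binding protein, went from 642, 595 and 618 FPKM to 465, 288 and 319 FPKM (-0.82, SE 0.144, adjusted p = 0.00133). In these 3 genes, as in Rps29, replicate 1 of the CITED2-deficient group was well above the other two.

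In the large subunit, Rpl37a went from 651, 678 and 639 FPKM to 475, 323 and 364 FPKM (-0.78, SE 0.114, adjusted p = 0.000445). Rpl39, a very small protein that lines the exit tunnel of the growing chain, went from 215, 226 and 218 FPKM to 161, 104 and 136 FPKM (-0.74, SE 0.125, adjusted p = 0.00108). Rpl38, known for its part in the translation of Hox mRNAs in the embryo, went from 331, 345 and 332 FPKM to 282, 159 and 183 FPKM (-0.73, SE 0.169, adjusted p = 0.00585). Rpl36 fell by 0.61 (SE 0.0984, adjusted p = 0.000817), from 433, 477 and 454 FPKM to 343, 248 and 309 FPKM, and 81.1% of its 50-base stretches also occur elsewhere in the transcripts, so its reads could be shared.

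The stalk of the large subunit, which recruits elongation factors, is built of Rplp0, Rplp1 and Rplp2, and the 3 genes fell unequally. Rplp1 was at 1174, 1278 and 1203 FPKM in control and at 860, 691 and 759 FPKM in CITED2-deficient libraries (log2 fold change -0.67, SE 0.0697, adjusted p = 5.35e-05). Rplp2 was at 468, 511 and 499 FPKM and at 371, 293 and 322 FPKM (-0.59, SE 0.0744, adjusted p = 0.00018). Rplp0 was at 887, 912 and 887 FPKM and at 776, 710 and 726 FPKM (-0.28, SE 0.0354, adjusted p = 0.000175). Of the 50-base stretches of Rplp1, Rplp2 and Rplp0, 60.0%, 18.3% and 33.1% also occur elsewhere in the transcripts, so their reads could be shared. Rplp0, also called 36B4, served as the housekeeping gene for RT-qPCR in the study, and its mean FPKM in CITED2-deficient BMDMs was 0.823 times that in control. The RT-qPCR experiments with 36B4 centred on LPS stimulation, RAW264.7 cells among them, whereas this FPKM is of untreated BMDMs. The level of Rplp0 under those conditions was not tested. The fall of Rplp0 kept its direction and its call under median-ratio scaling (-0.18, adjusted p = 0.00304) and with the length and GC trend removed (-0.12, adjusted p = 0.0171).

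**Figure D3:**
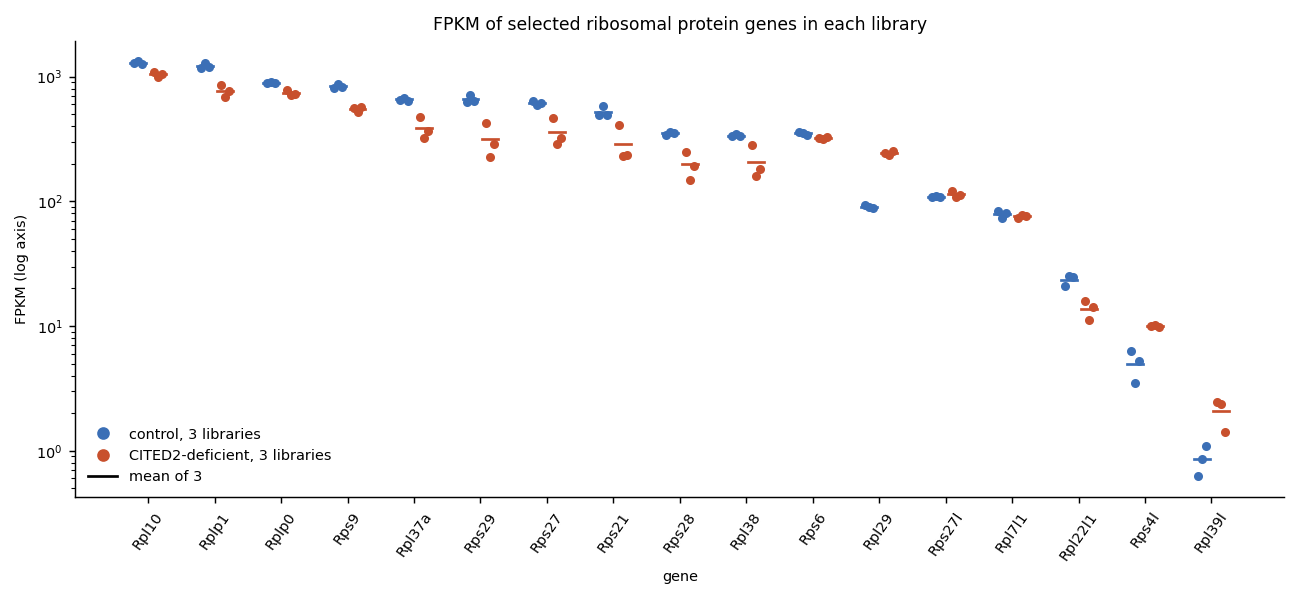
FPKM (vertical axis, logarithmic) of 17 ribosomal protein genes in the 3 control and the 3 CITED2-deficient libraries (points), with the group means as bars. Rps29, Rps27, Rps21, Rps28 and Rpl38 spread more in the CITED2-deficient group than in control, whereas Rpl29 is higher in every CITED2-deficient library (236 to 251 FPKM) than in any control library (88.1 to 92.6 FPKM).

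By mean FPKM the order of the most abundant genes was Rpl10, Rplp1, Rplp0, Rpl6 and Rps9, and their log2 fold changes ranged from -0.67 to -0.23. Rpl10, which joins the large subunit late in its assembly, was at 1285, 1321 and 1272 FPKM in control and at 1084, 994 and 1043 FPKM in CITED2-deficient libraries (-0.31, SE 0.0347, adjusted p = 7.59e-05). Rps9 was at 804, 866 and 828 FPKM and at 561, 520 and 571 FPKM (-0.60, SE 0.0416, adjusted p = 3.73e-06). Rpl6 was at 778, 791 and 763 FPKM and at 673, 666 and 651 FPKM (-0.23, SE 0.0264, adjusted p = 0.000103), and it did not pass the test once the length and GC trend was removed (-0.07, adjusted p = 0.0765). The order of the 77 core genes by level was largely kept between the groups (Spearman's rho of the group means 0.938, across genes that share libraries). Fall and level were nearly unrelated across the core genes (rho 0.019).

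Rpl5 and Rpl11, which with the 5S rRNA bind and inhibit the p53 ligase MDM2, fell by 0.38 (350 ± 12.2 to 269 ± 13.4 FPKM, adjusted p = 7e-05) and by 0.34 (464 ± 20.5 to 366 ± 19.0 FPKM, adjusted p = 0.000225). Rps3, which also acts in DNA repair and with NF-kB, fell by 0.33 (290 ± 10.3 to 231 ± 9.18 FPKM, adjusted p = 0.000106). Rps19 and Rps26, mutated in Diamond-Blackfan anaemia, fell by 0.46 (277 ± 16.0 to 202 ± 23.9 FPKM, adjusted p = 0.00123) and by 0.38 (434 ± 18.1 to 333 ± 20.2 FPKM, adjusted p = 0.000149). Rpsa, the laminin receptor precursor, fell by 0.27 (520 ± 25.1 to 431 ± 29.6 FPKM, adjusted p = 0.002). Each of these errors is an SD over 3 libraries. The groups did not overlap for any of these 6 genes, as for each of the 75 falls of the family. Among all tested genes 40.9% had all 3 CITED2-deficient libraries below all 3 control libraries.

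Rps6, the target of the S6 kinases, was among the least changed. It was at 359, 354 and 341 FPKM in control and at 322, 315 and 327 FPKM in CITED2-deficient libraries (-0.13, SE 0.0297, adjusted p = 0.0063). The call ended under median-ratio scaling (-0.02, adjusted p = 0.566), and the value was 0.03 (adjusted p = 0.497) with the length and GC trend removed.

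Rpl29 was the only core gene that rose. It was at 92.6, 90.3 and 88.1 FPKM in control libraries and at 244, 236 and 251 FPKM in CITED2-deficient libraries, a mean ratio of 2.70. The log2 fold change was 1.42 (SE 0.0341, adjusted p = 3.15e-09), and single libraries left out moved it only between 1.40 and 1.44. It was 1.52 under median-ratio scaling and 1.60 with the length and GC trend removed. The value rests on 973 to 1090 recovered fragments per control library and 3320 to 4079 per CITED2-deficient library. Rpl29 encodes a basic large-subunit protein also known as heparin/heparan sulfate-interacting protein, and 35.1% of its 50-base stretches occur in other transcripts as well. By mean FPKM over all libraries it ranked 70 of 86 in the family.

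The genes next to Rpl29 on chromosome 9 (Rpl29 at 106429454 to 106431568 in mm10, plus strand) did not rise with it by a like amount. Dusp7, upstream on the same strand, was at 39.5, 41.4 and 38.2 FPKM in control and 37.0, 33.7 and 38.8 FPKM in CITED2-deficient libraries (-0.12, adjusted p = 0.106). Acy1, downstream on the other strand, was at 1.00 to 1.32 FPKM in control and 0.364 to 0.611 FPKM in CITED2-deficient libraries and was not tested. Abhd14b fell (-0.52, adjusted p = 0.00664), and Pcbp4 rose by 0.44 (adjusted p = 0.00354). Parp3 and Alas1 rose as well, by 0.39 and 0.29 (adjusted p = 0.00158 and 0.00168), whereas Poc1a, Abhd14a and Rrp9 did not pass the test. The processed pseudogenes Rpl29-ps1 and Rpl29-ps2 were at no more than 0.177 FPKM in any library.

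Of the 4 paralogs tested, 1 fell, 1 rose and 2 did not pass the test, against 34.6% lower and 16.7% higher of all tested genes. The longest annotated coding sequences of each pair were aligned globally. Coding bases shared are the identical bases as a share of the longer sequence of the pair. Rpl22l1, with 66.9% of coding bases shared with Rpl22, fell by 0.75 (21.0, 25.0 and 24.8 to 15.8, 11.1 and 14.3 FPKM, adjusted p = 0.000676). Rpl22 fell as well, by 0.50 (163 ± 6.14 to 115 ± 7.38 FPKM, adjusted p = 3.73e-05), so both members of this pair were lower. Rps27l, a p53 target, was at 108, 110 and 109 FPKM in control and at 120, 108 and 113 FPKM in CITED2-deficient libraries (0.06, SE 0.0406, adjusted p = 0.285), whereas Rps27, with 60.0% of coding bases shared, was the fourth deepest fall. The coding sequences used for Rps27 and Rps27l have 84 and 105 codons, so the difference in length lowers this share. Under median-ratio scaling Rps27l was higher (0.16, adjusted p = 0.00975), as it was with the length and GC trend removed (0.22, adjusted p = 0.000291). Rpl7l1 was at 84.0, 73.8 and 81.2 FPKM and at 73.4, 77.0 and 76.9 FPKM (-0.07, SE 0.0497, adjusted p = 0.271), with groups that overlap and a value just above 0 under both of those scalings. Its relative Rpl7 (54.7% of coding bases shared) fell by 0.21 (484 ± 16.8 to 417 ± 16.8 FPKM, adjusted p = 0.00132), a call that ended with the length and GC trend removed (adjusted p = 0.0565). The differences between the 2 genes of a pair were not tested.

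Rpl39l, a paralog best known from testis (85.0% of coding bases shared with Rpl39), was close to the filter. It was at 0.625, 0.854 and 1.09 FPKM in control and at 2.44, 2.35 and 1.41 FPKM in CITED2-deficient libraries (0.72, SE 0.176, adjusted p = 0.00822), from 8 to 42 fragments per library. Rps4l, a transcribed processed pseudogene, rose from 6.29, 3.47 and 5.24 FPKM to 9.95, 10.2 and 9.82 FPKM (0.90, SE 0.154, adjusted p = 0.00112), while Rps4x fell by 0.39 (735 ± 27.6 to 562 ± 18.6 FPKM, adjusted p = 2.5e-05). Rpl3l, the striated muscle paralog of Rpl3, was at 0 to 0.173 FPKM and was not tested, while Rpl3 fell by 0.50 (505 ± 10.9 to 358 ± 13.0 FPKM, adjusted p = 2.65e-06). The pseudogene Rps3a2 (0.02, adjusted p = 0.924) shares 90.2% of its 50-base stretches with other transcripts, and Rps3a3 and Rpl6l had mean levels of 0.385 and 0.773 FPKM. Rpl10l is not listed among the genes.

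A set of 3 core genes had levels far below the rest. Of the 77 core genes 74 had a mean of at least 90 FPKM, whereas Rpl13a, Rps10 and Rpl24 were at 15.2, 3.58 and 1.39 FPKM. These are the only core genes in which more than 15% of the exonic bases lie within another annotated gene on the same strand: Gm45713 and small RNA genes for Rpl13a (35.4% of bases), the read-through gene RPS10-NUDT3 for Rps10 (20.6%) and Gm28037 for Rpl24 (47.0%). How the fragments in shared exons were assigned was not tested. Their fold changes were poorly determined. Rpl24 was at 1.63, 1.56 and 2.14 FPKM in control and at 1.29, 1.11 and 0.592 FPKM in CITED2-deficient libraries (-0.49, SE 0.171, adjusted p = 0.0395), and its call ended in each of several alternatives, median-ratio scaling (adjusted p = 0.0698) and the removal of the length and GC trend (adjusted p = 0.165) among them. Rpl13a, the subunit of the GAIT complex that blocks inflammatory mRNAs in myeloid cells, was at 16.3, 14.3 and 19.6 FPKM and at 14.5, 12.9 and 13.4 FPKM (-0.27, SE 0.101, adjusted p = 0.0502). Rps10 was at 4.22, 3.16 and 3.25 FPKM and at 3.91, 2.36 and 4.56 FPKM (adjusted p = 0.989), and its groups overlapped.

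Falls tended to be deeper in shorter transcripts. Across the 77 core genes, the log2 fold change had a Spearman's rho of 0.40 and a Pearson's r of 0.27 with the logarithm of the mean transcript length, against a rho of 0.099 over 11682 tested genes with a length. These are descriptions across genes, which share the 6 libraries and are not independent replicates. The 19 shortest core genes (383 to 580 bases) had a median of -0.59, and the 19 longest (898 to 1860 bases) a median of -0.33. Removing the length and GC trend of all genes left a rho of 0.30 and medians of -0.41 and -0.21. There was little relation with GC content (rho 0.011).

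**Figure D4:**
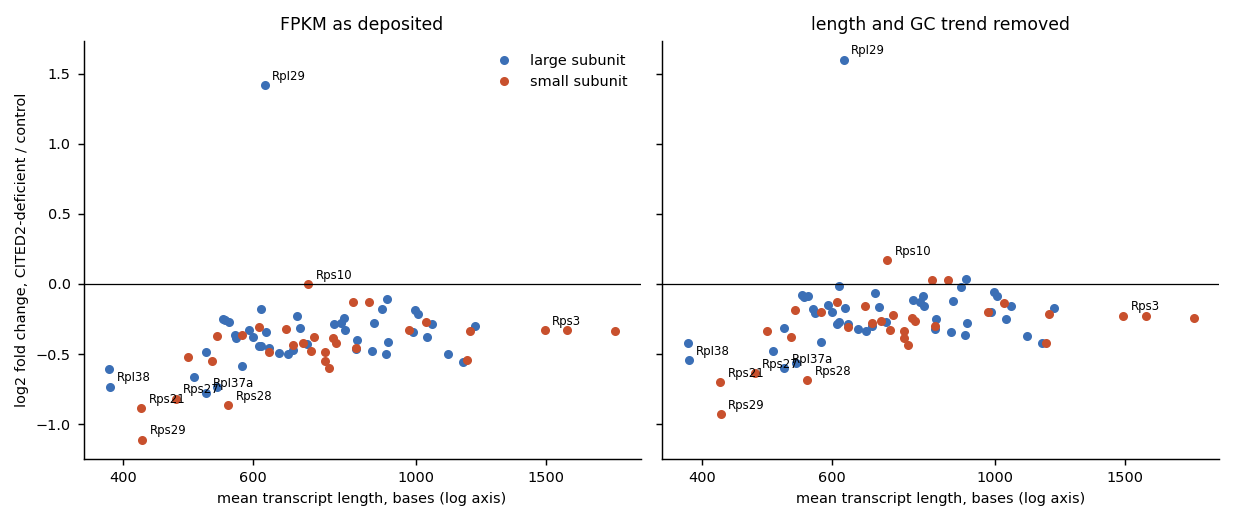
Log2 fold change (CITED2-deficient over control) of the 77 core genes against their mean transcript length in bases (logarithmic axis), for the deposited FPKM (left) and with the length and GC trend of all genes removed (right). The deepest falls, Rps29 at -1.11 and Rps21 at -0.89, are among the shortest transcripts in the left panel, and the fall of the 19 longest genes is smaller (median -0.33).

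Core genes with and without a pyrimidine run near the RefSeq start had much the same median fall. RefSeq and GENCODE starts can differ by more than 5 bases (Rpl37a at 72711260 and 72711290), so a missing run need not mean a missing TOP tract. The split therefore cannot tell genes with a TOP tract from genes without one. Of the 27 core genes with such a run within 5 bases of a RefSeq start, 25 fell, and the median of the 27 was -0.38. The exceptions were Rpl13a and Rps10, whose levels were far below the rest. All 30 core genes with a RefSeq start but no such run fell, with a median of -0.37. Rpl24, whose call ended in several alternatives, is among these 30. Of all tested genes 34.6% were lower.

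Lists of related genes, set beside the family for comparison, had medians of -0.18 to 0.19. Their counts of falls and rises on the deposited scale stand against 34.6% lower and 16.7% higher of all tested genes. Of 5 further ribosomal proteins outside the name rule, 4 were tested and 2 fell: Fau, whose product is cleaved to the small-subunit protein eS30, from 745 ± 26.4 to 560 ± 32.5 FPKM (-0.41, adjusted p = 6.65e-05), and Rack1 from 374 ± 14.3 to 306 ± 13.8 FPKM (-0.29, adjusted p = 0.000362).

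Among 19 translation factors and other TOP mRNAs, 16 fell and 1 rose, with a median of -0.18. The falls were led by Nap1l1 (120 ± 2.08 to 83.3 ± 3.44 FPKM, -0.52), Eef1b2 (238 ± 1.81 to 180 ± 7.48 FPKM, -0.40), Tpt1 (2757 ± 72.6 to 2105 ± 59.7 FPKM, -0.39) and Eif3f (182 ± 1.57 to 142 ± 5.12 FPKM, -0.35), each with an adjusted p of at most 2.66e-05. Vim, the intermediate filament gene whose mRNA also has a TOP start, rose from 421, 426 and 424 FPKM to 845, 798 and 791 FPKM (0.94, adjusted p = 2.45e-08). Vim is also high in fibroblasts, whose markers rose in the same libraries, to sums of 548, 173 and 174 FPKM in the CITED2-deficient ones. The part of such cells in the rise of Vim was not tested. With median-ratio scaling 9 of the 19 were lower and 1 higher (median -0.08), against 21.3% and 23.1% of all genes.

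Mitochondrial ribosomal proteins, which build the ribosome of another compartment, showed 16 falls and 3 rises among 77 tested genes of 81, with a median of -0.07. These are 20.8% and 3.9%, against 34.6% and 16.7% of all genes. The untested genes of the 81 were the pseudogenes Mrpl23-ps1, Mrpl48-ps, Mrps36-ps1 and Mrps36-ps2, since names with -ps were not left out of this list. Under median-ratio scaling there were 11 falls and 8 rises (21.3% and 23.1% of all genes were lower and higher), with a median of 0.03. The largest fall was that of Mrpl28 (62.5 ± 0.467 to 40.8 ± 1.95 FPKM, -0.60, adjusted p = 3.54e-06). The named cytosolic ribosomal protein pseudogenes (-ps) were mostly below the filter: 30 of 130 were tested, 2 rose and 0 fell by limma (3 higher and 1 lower at an unadjusted p below 0.05), whereas limma-voom on recovered fragments called 0 rises and 1 fall.

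Of 34 genes for ribosome assembly and rRNA processing, 4 fell (Nop10, Nat10, Ncl and Sbds) and 0 rose by limma, with a median of -0.01. At an unadjusted p below 0.05, 7 were lower and 3 higher, and limma-voom also called 4 falls and 0 rises. Under median-ratio scaling, which shifts all genes upward (23.1% of all genes higher and 21.3% lower), 11 were higher and 1 lower (median 0.09). With the length and GC trend removed 12 were higher and 1 lower (median 0.13), against 24.4% and 20.2% of all genes. Nop10, a protein of H/ACA ribonucleoproteins, fell from 23.1 ± 0.937 to 15.8 ± 1.62 FPKM (-0.52, adjusted p = 0.000333) and did so under both (adjusted p = 0.00126 and 0.00162). Ncl, nucleolin, fell from 129 ± 2.34 to 114 ± 4.08 FPKM (-0.17, adjusted p = 0.00303) but not past the threshold under either of the 2 scalings (adjusted p = 0.149 and 0.0636). Of 14 genes of the RNA polymerase I machinery, which makes rRNA, 2 fell and 1 rose, whereas 0 were lower and 2 higher both under median-ratio scaling and with the length and GC trend removed (limma; at an unadjusted p below 0.05 on the deposited scale, 2 were lower and 2 higher, and limma-voom called 2 falls and 1 rise). The one that rose was Polr1a, the largest subunit, at 14.1, 12.4 and 13.4 FPKM in control and 20.0, 18.9 and 19.5 FPKM in CITED2-deficient libraries (0.52, adjusted p = 9.35e-05). Of 5 ribosomal protein chaperones, 1 fell (Pdcd2l, -0.33, adjusted p = 0.00517, not past the threshold with the length and GC trend removed) and 1 rose (Grwd1, 0.29, adjusted p = 0.0324).

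**Figure D5:**
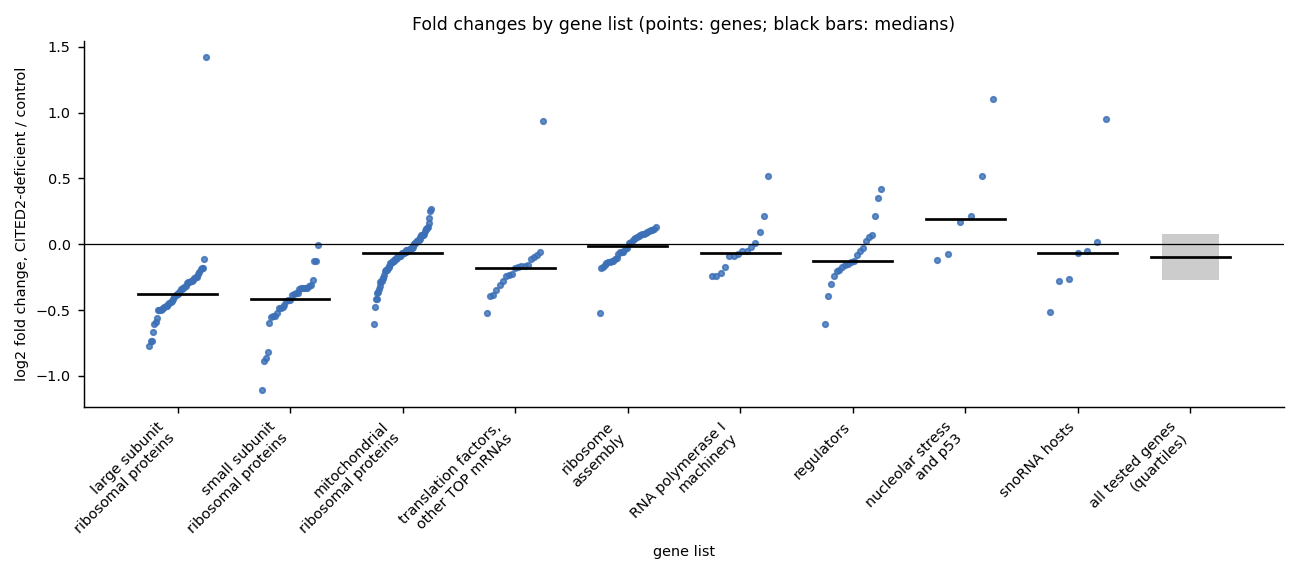
Log2 fold change (CITED2-deficient over control, vertical axis) of each tested gene (points) in the ribosomal protein groups and the related lists, with the list medians as black bars and the quartiles of all 11687 tested genes as a grey bar. The medians of the large and small subunit (-0.38 and -0.42) are below the lower quartile of all genes (-0.27), and those of the other lists shown are above it.

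Among 20 regulators of ribosomal protein genes and TOP mRNAs, 9 fell and 3 rose, against 34.6% lower and 16.7% higher of all genes. Most of these falls ended with the scaling: 3 were lower and 4 higher under median-ratio scaling, and 4 were lower and 4 higher with the length and GC trend removed. Larp1, which binds the TOP tract, rose from 34.2 ± 0.914 to 40.0 ± 0.672 FPKM (0.22, adjusted p = 0.00161), and Rptor, the raptor subunit of mTORC1, from 30.7 ± 0.988 to 39.5 ± 1.04 FPKM (0.35, adjusted p = 0.000136). Max, the partner of MYC, rose from 113 ± 2.76 to 152 ± 8.89 FPKM (0.42, adjusted p = 5.59e-05). Myc itself was at 5.81, 5.80 and 5.39 FPKM and at 5.90, 4.68 and 4.73 FPKM (-0.13, adjusted p = 0.278), with overlapping groups. Eif4ebp2, a repressor of cap-dependent translation, fell from 67.8 ± 0.468 to 44.3 ± 1.95 FPKM (-0.60, adjusted p = 2.77e-06), while Eif4ebp1 was at 32.4 ± 1.60 and 33.1 ± 1.29 FPKM (adjusted p = 0.672). Gabpb1, a subunit of the ETS factor GABP, fell by 0.39 (11.2 ± 0.678 to 8.30 ± 0.85 FPKM, adjusted p = 0.00334). Maf1, a repressor of RNA polymerase III, fell by 0.30 (127 ± 5.48 to 103 ± 0.889 FPKM, adjusted p = 0.000141). These 6 changes kept their direction and call under both scalings, whereas the other 6 falls of the list (Akt1s1, Rps6kb2, Yy1, Gabpa, Tsc2 and Tsc1, named after their values were seen) lost their call under median-ratio scaling.

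Of 6 genes listed for nucleolar stress and p53, 4 rose and 0 fell by limma, against 16.7% higher and 34.6% lower of all tested genes. The same counts were found by limma-voom, under both scalings (23.1% and 24.4% of all genes higher) and at an unadjusted p below 0.05. The list holds p53, its regulators and its targets, and nucleolar stress itself was not measured. Cdkn1a, the cell cycle inhibitor p21, rose from 38.7, 38.8 and 42.3 FPKM to 85.7, 87.2 and 86.1 FPKM (1.10, adjusted p = 6.68e-08). Mdm2 rose from 74.4, 71.0 and 73.6 FPKM to 103, 104 and 108 FPKM (0.52, adjusted p = 2.56e-06), and Trp53 from 32.5 ± 1.68 to 37.7 ± 0.578 FPKM (0.21, adjusted p = 0.0046). Of 7 tested snoRNA host transcripts, 3 fell (Snhg8, Gas5 and Snhg12) and 1 rose. These shares (42.9% and 14.3%) are near those of all tested genes (34.6% lower and 16.7% higher). Snhg8 fell from 12.9 ± 1.36 to 8.75 ± 0.599 FPKM (-0.51, adjusted p = 0.000992) and was the only fall of the list left with the length and GC trend removed, and Zfas1 rose from 13.0, 12.7 and 13.4 FPKM to 27.4, 24.6 and 26.1 FPKM (0.95, adjusted p = 1.03e-06).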

How the data were processed

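The FPKM of each gene and library are the authors' deposited values. They depleted ribosomal RNA, made stranded libraries, mapped with STAR to mm10 and quantified with Cuffdiff and GENCODE genes; no source used here gives the versions. FPKM are relative to library size, so they measure shares of RNA and not RNA per cell.

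A mean of at least 1 FPKM was required (11687 of 22248 genes). With limma 3.58.1 (R 4.3.3) and a mean-variance trend, log2(FPKM + 1) of 3 CITED2-deficient libraries was compared with that of 3 control libraries. Genes with a Benjamini-Hochberg adjusted p below 0.05, over every tested gene, were called. Fold changes refer to log2(FPKM + 1), so those of low genes are understated. Fragment numbers were recovered with GENCODE vM21 mean transcript lengths, and 96.1% of 22239 matched genes were within 0.02 of whole numbers in all 6 libraries. Gene coordinates are from GENCODE vM21 (GRCm38, the same build as mm10) and promoters from RefSeq. Length and GC trends were fitted per library over tested genes with a length. The script was tested on simulated data.

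The genes, the lists around them and the tests were chosen with earlier results of these data known, so the patterns are no independent evidence. Named are the paralog pairs, Rplp0, Rplp1, Rplp2 and Rpsa, the 10 called genes with the largest fold in each direction whose groups did not overlap, the 5 highest and lowest by level, Rpl5, Rpl11, Rpl13a, Rpl22, Rps3, Rps6, Rps19, Rps26 and Rpl38, genes below the filter, up to 5 genes per list by absolute fold change, and Myc, Larp1, Eif4ebp1, Mdm2 and Cited2. The neighbours of Rpl29 were added after its values were seen. Genes that share exons or 50-base stretches with other genes are uncertain, since the sources used here do not state how shared reads were assigned. The alternatives were other pseudocounts, filters, scalings, weights and variance models, a replicate block, each library left out, and limma-voom on recovered fragments. A gene of the related lists that the naming rule would cover is not reported here, and list genes outside the rule enter by count.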

Additional observations from a re-analysis of the deposited data

How the results depend on the processing

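Of the 75 falls and 3 rises in the family, 72 to 76 falls and 3 rises were called when single libraries were left out, with the median between -0.43 and -0.35. Median-ratio scaling gave a family median of -0.28, 2490 lower genes over all genes (main 4044), and 25 higher and 18 lower genes in the related lists (main 11 and 37). The same scaling computed without the family gave -0.28, 2518, 25 and 18. Quantile normalization gave 18 higher list genes. Removing the length and GC trend gave -0.23, 2366, 26 and 16, and, as an alternative chosen after seeing the data, fitting that trend without the family gave -0.24, 2395, 26 and 16. Pyrimidine runs were at 13 annotated starts exactly and within 5 bases of 31. Limma-voom on recovered fragments called 74 falls and 3 rises of 6186 genes called in all, and a fold of at least 0.26 on the log2 scale left 64 falls and 3 rises.

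Rps10 turned positive under median-ratio scaling (0.077, and 0.075 without the family), quantile normalization (0.046), array weights (0.0047), length and GC removal (0.17, and 0.16 fitted without the family) and limma-voom (0.0014), and when control replicate 1 (0.10) or CITED2-deficient replicate 2 (0.21) was left out, in a range of -0.15 to 0.21 over single libraries left out. Rpl7l1 turned positive under the 2 median-ratio scalings (0.033 and 0.031) and the 2 trend removals (0.048 and 0.047), as Rps6 did under the trend removals (0.025 and 0.015). Rps3a2 turned negative under quantile normalization (-0.00063) and without control replicate 1 (-0.12), CITED2-deficient replicate 1 (-0.043) or CITED2-deficient replicate 3 (-0.0011), with 0.11 as the highest value over single libraries left out. The cause was not tested. Rpl24 lost its call without each of control replicates 1, 2 and 3 and CITED2-deficient replicates 2 and 3 (log2 fold changes -0.54 to -0.33), and Rpl13a gained one without control replicate 2 (-0.37) or CITED2-deficient replicate 1 (-0.31).

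The replicate numbers are only numbers: same-numbered libraries deviated from their group means with correlations of 0.014, 0.0078 and 0.04, and not every library correlated best with its own number. The replicate block kept 75 falls and 3 rises in the family and 5708 calls in all; with the block Rpl24 lost its call (-0.49) and Rpl13a gained one (-0.27). Depth limits the genes near the filter, such as Rpl24 with 8 to 21 fragments per library.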
